A study of Mus musculus with 6 samples.

Results

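The genes described here act in DNA replication and in mitosis. They were taken from a fixed list of 42 symbols, 21 for each process, by matching the symbols to the gene annotation of the array's probes. Of these, 40 were measured on a probe of their own, 20 for replication and 20 for mitosis, out of 30142 genes in all. The other two were the helicase subunit gene Mcm7, whose probe also names the microRNA genes Mir25 and Mir93 and was not used, and the mitotic cyclin gene Ccnb1, which is not named on a probe in the annotation used here.

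The 6 Clariom D Mouse arrays held RNA of platelets from mouse blood or of bone marrow cells named megakaryocyte progenitors, pooled over the mice of a group. Each cell type had 1 array for control mice that received PBS, 1 for the treatment labelled CTC41-EVs and 1 for that labelled CTC41.5G-EVs. EVs usually stands for extracellular vesicles, membrane particles that cells release, and the labels do not explain the names before it. They also leave out the strain, age and number of mice, the dose and time of treatment, and which pools went through the bead step against white and red blood cells. Each group was 1 array, so no treatment was replicated within a cell type.

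Before a cell divides it copies its chromosomes once. Licensing factors load the MCM helicase onto origins, cyclin-dependent kinases start the helicase, and polymerases held on the DNA by the PCNA clamp copy the strands. In mitosis, CDK1 with B-type cyclins, the Aurora kinases and PLK1 drive spindle assembly, and the anaphase-promoting complex with CDC20 ends it. Megakaryocytes are known for endomitosis, in which DNA is copied again and again while anaphase and cytokinesis are cut short, so that cells become polyploid. Platelets are shed from such cells and have no nucleus, so they do not transcribe nuclear genes themselves.

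Genes of both processes are known to be switched together through their promoters, replication genes mostly through E2F sites and mitosis genes mostly through the CHR element (cell cycle genes homology region) beside CCAAT boxes. RefSeq promoter windows of GRCm38.p6, from 250 bases before to 50 after the gene start, were found for 34 of the 42 listed genes, 16 for replication and 18 for mitosis. They were searched on both strands. The first E2F-type motif was TTTCGCG. Another, differing from it in the middle, was TTTGGCG. The last of this type was TTCCCGC. CHR letters were TTTGAA, or its variant with a central A, which reads TTTAAA on either strand. The CCAAT box was searched by its name. No motif is contained in another. An E2F-type motif was in 11 of 16 replication windows and 1 of 18 mitosis windows, that of Cdk1, against 6.8% of all 27025 windows. CHR letters were in 4 of 16 replication windows and 17 of 18 mitosis windows, against 27.8% of all. CCAAT was in 10 of 16 and 16 of 18, against 37.9%. The windows below belong to the called genes with the largest cell type difference in each set, Cdk2 and Ccne1 for replication and Mki67 and Cdc20 for mitosis, and show how the elements lie. Letters are lower case and matches to any of the motifs, on either strand, are in capitals.
Cdk2 promoter, chr10:128705002-128705301 (-): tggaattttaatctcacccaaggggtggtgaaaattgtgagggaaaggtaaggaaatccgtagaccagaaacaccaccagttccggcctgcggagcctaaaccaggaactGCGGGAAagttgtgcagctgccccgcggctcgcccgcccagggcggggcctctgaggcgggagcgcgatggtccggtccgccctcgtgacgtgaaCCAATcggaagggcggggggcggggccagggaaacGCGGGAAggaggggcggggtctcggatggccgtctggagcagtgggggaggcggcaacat
Ccne1 promoter, chr7:38107441-38107740 (-): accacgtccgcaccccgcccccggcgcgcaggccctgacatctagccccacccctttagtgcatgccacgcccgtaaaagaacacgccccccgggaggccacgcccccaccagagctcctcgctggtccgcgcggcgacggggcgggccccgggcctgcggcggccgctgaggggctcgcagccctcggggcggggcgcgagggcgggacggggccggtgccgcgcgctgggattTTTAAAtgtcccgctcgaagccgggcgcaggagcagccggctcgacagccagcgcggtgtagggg
Mki67 promoter, chr7:135716330-135716629 (-): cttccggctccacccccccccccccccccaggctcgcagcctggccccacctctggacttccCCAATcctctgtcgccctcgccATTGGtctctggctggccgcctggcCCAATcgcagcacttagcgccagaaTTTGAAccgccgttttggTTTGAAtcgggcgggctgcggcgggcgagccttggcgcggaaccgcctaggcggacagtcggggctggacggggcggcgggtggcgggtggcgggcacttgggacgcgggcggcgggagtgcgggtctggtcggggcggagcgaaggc
Cdc20 promoter, chr4:118437294-118437593 (-): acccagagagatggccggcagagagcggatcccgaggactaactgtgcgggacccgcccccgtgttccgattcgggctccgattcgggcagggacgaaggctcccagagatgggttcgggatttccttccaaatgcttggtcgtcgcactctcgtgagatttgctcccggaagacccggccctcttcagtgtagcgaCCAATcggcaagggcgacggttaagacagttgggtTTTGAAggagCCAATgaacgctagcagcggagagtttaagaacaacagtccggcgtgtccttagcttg

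In Cdk2, matches to TTCCCGC on the opposite strand began 140 and 10 bases upstream of the start, with a CCAAT at 45. Ccne1 held no E2F-type motif in this window and 1 TTTAAA, 15 bases upstream. Mki67 held TTTGAA at 116 and 98 bases upstream, below 3 CCAAT boxes at 188, 166 and 141, and Cdc20 held TTTGAA at 18, between CCAAT boxes at 53 and 8. A match describes letters in the window and is not evidence of binding.

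Most member signals were low. On the deposited log2 scale the 20 replication genes had a median level of 4.34 in platelets and 4.81 in progenitors, and the 20 mitosis genes 4.26 and 4.48, where the median of all probes was 4.23. As a gauge of unspecific signal, 1083 olfactory receptor genes, which blood cells are not known to use as odour receptors, had a median of 3.09 in platelets and 3.79 in progenitors. Their 95th percentile was 4.56 and 5.72. In progenitors, 2 of the 40 members exceeded that percentile, Pold1 and Plk1, against 13.7% of all genes. In platelets 14 did, 8 for replication and 6 for mitosis, against 44.7% of all genes. On the progenitor arrays, 38 of 40 members thus lay within the range of these receptor genes.

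**Figure D1:**
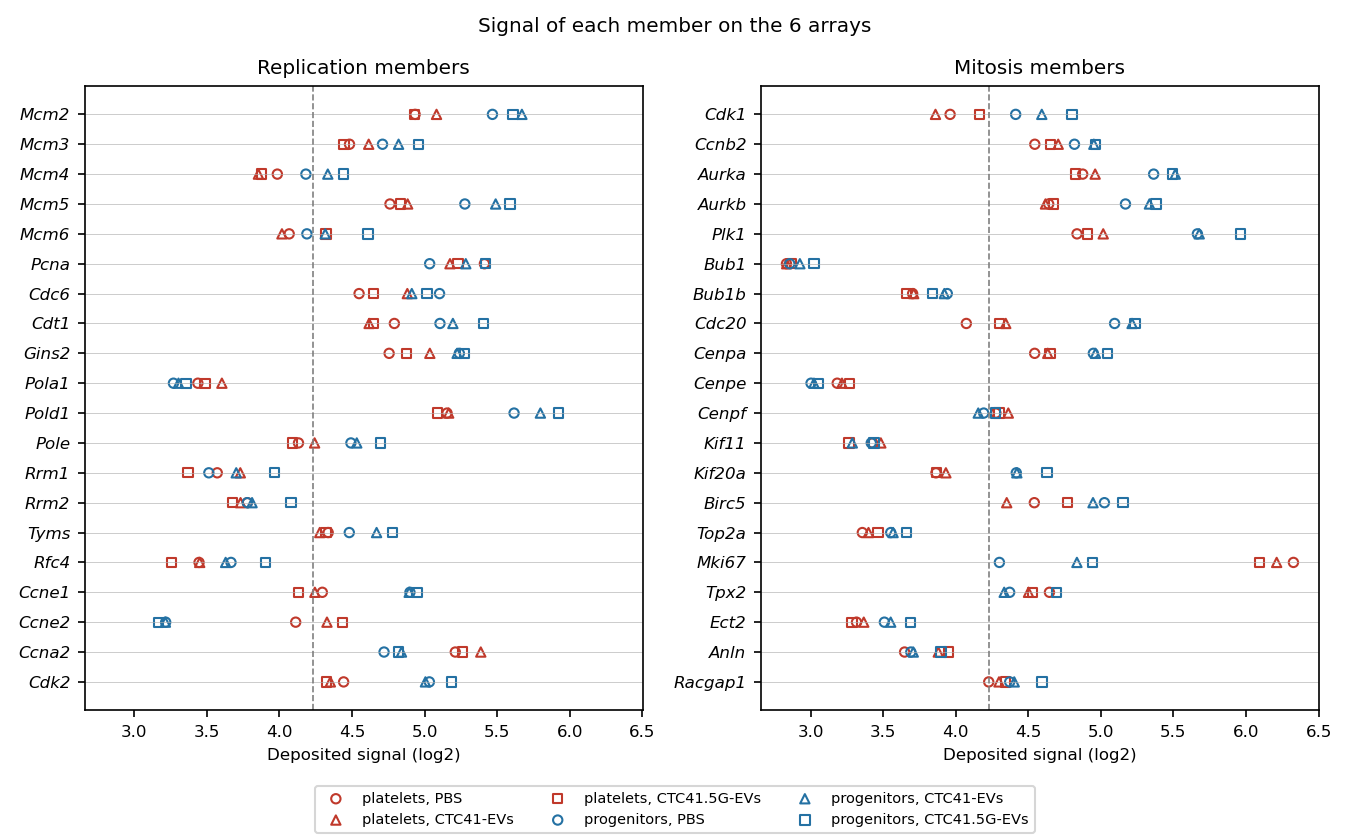
Deposited log2 signal (horizontal axis) of each of the 40 measured members (rows) on the 6 arrays; red symbols are platelet arrays, blue symbols progenitor arrays, shapes give the treatment, and the dashed line is the floor of 4.23. Mki67, between 6.09 and 6.33 on the platelet arrays and between 4.30 and 4.94 on the progenitor arrays, lies higher in platelets, while most other members lie slightly lower there.

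The 2 RNA sources were compared with limma over all 18875 genes whose mean signal reached the floor of 4.23. Calls required a difference of 1.5-fold or more and an adjusted p no higher than 0.05. In platelets, 9 of the 26 members that reached the floor were lower by this rule, and 1 was higher, where 25.7% and 16.2% of all tested genes were. Each mean ± SD below is over the 3 arrays of a cell type, which differ in treatment, and p-values measure only the spread among these pooled arrays. In pooled RNA, fewer cells that express a gene and less of its RNA per cell cannot be told apart.

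Among replication genes, 5 of 14 tested were lower in platelets and 0 were higher, against 25.7% and 16.2% of all tested genes. Cdk2, the kinase that acts with cyclins E and A at the start of S phase, stood at 4.44, 4.35 and 4.32 in platelets (in the order PBS, CTC41-EVs, CTC41.5G-EVs, as in all triplets below) and at 5.03, 5.01 and 5.18 in progenitors. Its log2 difference was -0.70 (SE 0.09, limma adjusted p = 0.000391), and the 2 cell types did not overlap. Ccne1, encoding cyclin E1, a partner of that kinase, stood at 4.29, 4.24 and 4.13 in platelets and 4.90, 4.89 and 4.95 in progenitors. The difference was -0.69 (SE 0.09, limma adjusted p = 0.000418), again without overlap. Its platelet mean of 4.22 was under the floor, so it was tested only through the progenitor arrays, where it is higher; the same held for Cdk1 below, and for Mcm6 and Pole, which were not called.

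Pold1, the catalytic subunit of DNA polymerase delta, stood at 5.15, 5.17 and 5.09 in platelets and 5.62, 5.80 and 5.92 in progenitors, a difference of -0.64 (SE 0.10, limma adjusted p = 0.00116). All progenitor arrays were above all platelet arrays. The helicase subunit genes Mcm5 and Mcm2 were lower by a similar amount. Mcm5 stood at 4.76, 4.88 and 4.83 against 5.28, 5.49 and 5.59 (difference -0.62, SE 0.09, limma adjusted p = 0.000593). Mcm2 stood at 4.93, 5.08 and 4.93 against 5.47, 5.67 and 5.61 (difference -0.60, SE 0.09, limma adjusted p = 0.000639).

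The other MCM subunits were not called. Mcm3 differed by -0.32 and Mcm6 by -0.24, and Mcm4, under the floor, by -0.41. The 3 licensing and helicase assembly genes were lower without overlap, as were 51.3% of all genes. They differed by less than 1.5-fold: Cdt1 by -0.55, Gins2 by -0.36 and Cdc6 by -0.32. In the polymerase group Pole, the catalytic subunit of polymerase epsilon, differed by -0.42. Pcna, the sliding clamp, lay at 5.41, 5.17 and 5.23 in platelets and 5.03, 5.28 and 5.42 in progenitors. These values overlapped, and the difference was 0.03 (SE 0.12, limma adjusted p = 0.854). The nucleotide supply genes Rrm1, Rrm2 and Tyms differed by -0.17, -0.16 and -0.33, with Rrm1 and Rrm2 under the floor.

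Ccne2, encoding the other E-type cyclin, stood at 4.11, 4.33 and 4.43 in platelets and at 3.22, 3.21 and 3.17 in progenitors. Its mean over the 6 arrays lay under the floor, so it was not tested and no fold is given. Neither cell type exceeded its 95th percentile of olfactory receptor genes. That also held for the called genes Cdk2 and Ccne1 above, and for Cdk1 and Cdc20 below. Ccna2, encoding cyclin A2, which acts in S phase and into G2, stood at 5.21, 5.39 and 5.26 in platelets and 4.72, 4.84 and 4.82 in progenitors, also without overlap. Its difference of 0.49 (SE 0.08, limma adjusted p = 0.00115) came to 1.41-fold and was therefore not called.

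**Figure D2:**
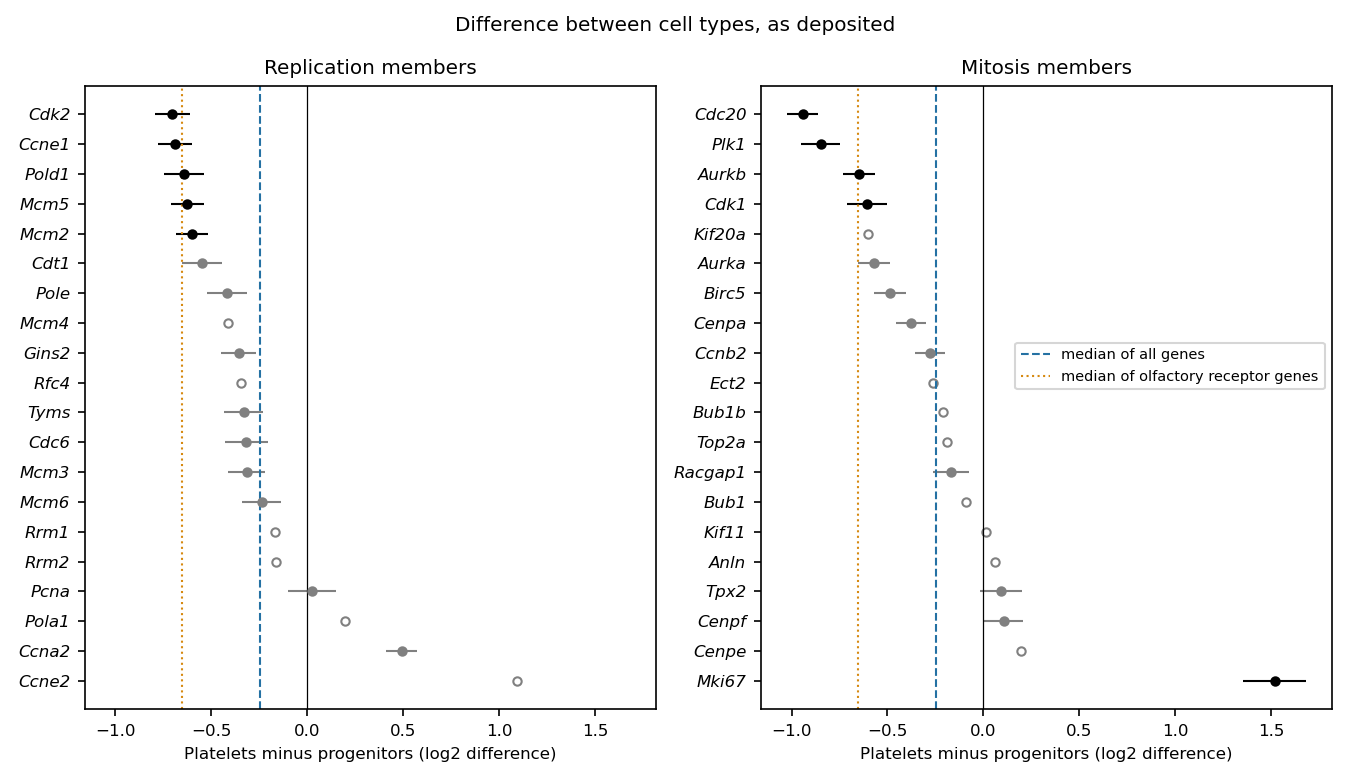
Log2 difference, platelets minus progenitors, of each measured member as deposited, ordered within each set; black filled points were called, grey filled points were tested and not called, open points lay under the floor and were not tested, and bars are the SE of the limma fit. The dashed line is the median of all genes (-0.24) and the dotted line that of olfactory receptor genes (-0.65); the called replication genes lie between -0.70 and -0.60, Cdc20 lies at -0.94 and Mki67 at 1.52.

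Among mitosis genes, 4 of 12 tested were lower in platelets and 1 was higher, against the same 25.7% and 16.2%. All 5 measured kinase and cyclin genes were lower in platelets without overlap, as were 51.3% of all genes, and 3 were called. Plk1, Polo-like kinase 1, stood at 4.84, 5.02 and 4.91 in platelets and 5.66, 5.68 and 5.96 in progenitors, a difference of -0.85 (1.80-fold, SE 0.10, limma adjusted p = 0.000313). Aurkb, the kinase of the chromosomal passenger complex, stood at 4.64, 4.62 and 4.68 against 5.17, 5.33 and 5.38 (difference -0.65, SE 0.08, limma adjusted p = 0.000402). Cdk1, the main mitotic kinase, stood at 3.96, 3.86 and 4.17 against 4.41, 4.59 and 4.80 (difference -0.61, SE 0.10, limma adjusted p = 0.00154), with its platelet mean under the floor. Aurka differed by -0.57 and Ccnb2, encoding cyclin B2, by -0.28.

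Cdc20, the activator of the anaphase-promoting complex, had the largest difference downwards of all 40 members. It stood at 4.07, 4.34 and 4.30 in platelets and at 5.09, 5.21 and 5.23 in progenitors. Neither mean exceeded the 95th percentile of olfactory receptor genes in its cell type. The gap between the groups was wider than the spread within either, with a difference of -0.94 (1.92-fold, SE 0.08, limma adjusted p = 6.39e-05). The checkpoint kinase genes Bub1 and Bub1b lay under the floor and differed by -0.09 and -0.21.

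Mki67, encoding the proliferation marker Ki-67 that coats mitotic chromosomes, went the other way. It stood at 6.33, 6.21 and 6.09 in platelets, 6.21 ± 0.12 (SD, n = 3), and at 4.30, 4.83 and 4.94 in progenitors, 4.69 ± 0.34 (SD, n = 3). The difference was 1.52 (2.86-fold, SE 0.16, limma adjusted p = 0.00018). It was 2.03 between the PBS arrays, 1.38 between the CTC41-EVs arrays and 1.15 between the CTC41.5G-EVs arrays, so the cell types lay furthest apart without EVs, and with 1 array per group that change was not tested. Mki67 is measured by 1 probe here.

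The remaining mitosis genes differed by -0.60 to 0.20. Birc5, encoding survivin of the passenger complex, differed by -0.49 and Cenpa, the centromeric histone, by -0.38, both without overlap. Cenpe and Cenpf, of the outer kinetochore, differed by 0.20 and 0.11. Of the spindle genes Kif20a differed by -0.60 under the floor, Kif11 by 0.01 and Tpx2 by 0.09. The cytokinesis genes Ect2, Anln and Racgap1 differed by -0.26, 0.06 and -0.17, and Top2a, which untangles sister DNAs, by -0.19. None of these genes was called in the main setting, and Kif20a was called lower without a floor.

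Over all 40 measured members, without a floor, 30 had a lower mean in platelets and 10 a higher one, where 69.5% and 30.5% of all genes did. After scaling to equal array medians, 12 replication and 13 mitosis members were higher, where 61.5% of all genes were. The median difference was -0.34 for replication and -0.24 for mitosis, beside -0.24 over all genes and -0.65 over olfactory receptor genes. The arrays did not overlap in the lower direction for 13 replication and 13 mitosis members, where 51.3% of all genes did so, and in the higher direction for 3 and 3, where 19.4% did. By this description, without a floor, the mitosis members were at the median of all genes. Among members that reached the floor the median was -0.39 for replication and -0.43 for mitosis, beside -0.26 over all tested genes. Some of these members reached the floor through 1 cell type only.

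The medians and the number of calls depended on how the arrays were put on a common scale, which the sources leave unclear. After quantile normalization the medians were 0.013 for replication and 0.11 for mitosis, beside 0.06 over all genes. Scaling to equal array medians gave 0.037 and 0.14, beside 0.13. Centring each array on its olfactory receptor genes gave 0.38 and 0.48, beside 0.47. For members that reached the floor, quantile normalization gave -0.033 and -0.076, beside 0.054 over all tested genes. Scaling to equal array medians gave these -0.012 and -0.055, beside 0.11, and the centring gave 0.33 and 0.29, beside 0.45. In each of these 3 settings 0 of the 9 lower calls passed. All 9 genes stayed below 0 after quantile normalization, from -0.58 for Plk1 to -0.23 for Cdk1, and after scaling to equal medians, from -0.57 for Cdc20 to -0.22 for Mcm2, all under 1.5-fold. After centring on the receptor genes, 7 of the 9 genes changed sign, with values between 0.014 for Cdk2 and 0.12 for Mcm2, while Cdc20 (-0.22) and Plk1 (-0.13) stayed below 0. Mki67 was called higher in all 15 settings, with differences from 1.26 to 2.23 and limma adjusted p from 8.12e-06 to 0.000956. These settings are not independent. Those that changed neither the scaling nor the arrays all gave 1.52, and leaving out either array of a treatment gave the same difference. Ccna2 was called in these 3 settings, at 0.81, 0.87 and 1.21.

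**Figure D3:**
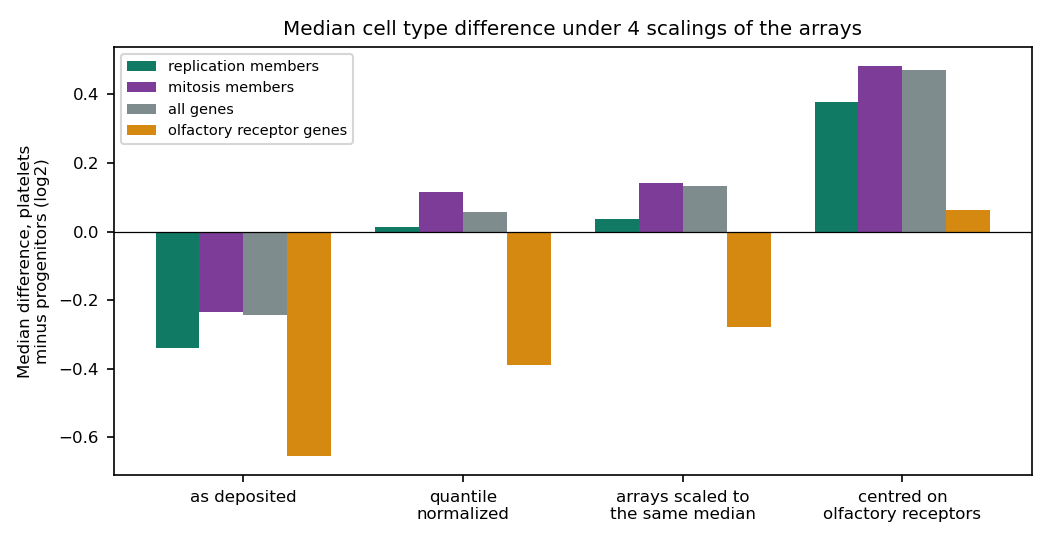
Median log2 difference, platelets minus progenitors (vertical axis), of the 20 replication members, the 20 mitosis members, all 30142 genes and 1083 olfactory receptor genes under 4 ways of scaling the arrays. Both member medians are below 0 as deposited (-0.34 and -0.24) and above 0 in the other 3 settings, and they follow the median of all genes.

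The other genes of these pathways, from lists that hold no member, were called in both directions, against 25.7% lower and 16.2% higher of all tested genes. In platelets, 9 of 29 tested further replication genes were called lower and 4 higher. E2f2, encoding an E2F transcription factor, was higher by 1.26 (SE 0.12), and Orc2, of the origin recognition complex, stood at 4.87 in platelets and 3.62 in progenitors. The progenitor mean of Orc2 was under the floor, so it was tested only through the platelet arrays, where it is higher. Asf1b, a histone chaperone, and Uhrf1, which guides maintenance of DNA methylation, differed by -0.85 (SE 0.09) and -0.84 (SE 0.10). Among 34 tested further mitosis genes there were 4 lower and 5 higher calls. Pttg1, the separase inhibitor securin, and Ube2c, an enzyme that works with the anaphase-promoting complex, were higher by 1.26 (SE 0.09) and 1.21 (SE 0.12). The condensin subunit gene Ncapd2 and Cdca3 differed by -0.74 (SE 0.08) and -0.72 (SE 0.09). Uhrf1 remained called lower after quantile normalization, and 0 of these 13 lower calls passed after centring on the receptor genes, while E2f2, Orc2, Pttg1 and Ube2c were called in each setting in which they were tested.

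Of the G1 regulators, which decide entry into the cycle, 14 of 17 measured had a higher mean in platelets, where 30.5% of all genes did, and 4 of 16 tested were called higher and 1 lower, against 16.2% and 25.7%. Cdk6, a kinase that binds D-type cyclins, stood at 7.23 in platelets and 5.37 in progenitors (difference 1.86, SE 0.13, limma adjusted p = 2.56e-05). Ccnd2 and Ccnd3, encoding D-type cyclins, differed by 1.52 (SE 0.12) and 0.99 (SE 0.12). Rb1, encoding the retinoblastoma protein that restrains E2F factors, differed by 3.71 (SE 0.10) on the probe with the highest mean. That probe stood at 7.32 in platelets and 3.61 in progenitors. The latter is under the floor, so Rb1 was tested only through the platelet arrays, where it is higher. The other 2 probes of Rb1 stood at 2.60 and 3.17 in platelets and 3.93 and 3.42 in progenitors, so the 3 probes disagree. Cdk4 was the gene called lower (-0.72, SE 0.17), and that difference was -0.0046 after centring on the receptor genes.

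The marker lists bear on what these pools hold. Of all tested genes, 16.2% were called higher in platelets and 25.7% lower. All 12 measured platelet and megakaryocyte markers were called higher in platelets, with list means of 9.60 to 10.11 there and 5.50 to 5.58 in progenitors. The 9 megakaryocyte progenitor markers had list means of 5.51 to 5.71 on the progenitor arrays and 7.28 to 7.60 on the platelet arrays, with 5 called higher in platelets and 1 lower. In progenitors 4 of them exceeded the 95th percentile of olfactory receptor genes there (5.72). Itga2b stood at 6.51, and Slamf1, which lay under that percentile, at 4.59. Granulocyte precursor markers, which mark dividing bone marrow cells, had list means of 5.84 to 6.10 in progenitors and 4.49 to 4.53 in platelets, with 6 of 8 called lower in platelets and 3 under the floor there. Late neutrophil markers had 6.57 to 6.69 against 5.12 to 5.49, with 7 of 10 called lower. B lymphoid precursor markers had 4.97 to 5.07 against 4.46 to 4.50, with 3 of 7 tested called lower. Erythroid precursor markers had 4.84 to 4.94 against 5.63 to 5.72, with 3 of 9 tested called higher. T and NK cell markers had 4.93 to 5.04 against 4.64 to 4.70, with 0 of 5 tested called. Monocyte and macrophage markers had 4.93 to 4.96 against 5.29 to 5.39, with 2 of 8 tested called higher. Their part in the members' differences was not tested.

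The EV comparisons asked whether vesicle treatment went with other levels of these genes. Averaged over both cell types in the same limma model, 0 of the 26 tested members were called for CTC41-EVs or CTC41.5G-EVs against PBS or between the EV types, and 0.0% of all tested genes were. At an unadjusted p under 0.05 there were 0, 1 and 2 members in that order, and 577, 1171 and 1157 of all tested genes. The 1 gene for CTC41.5G-EVs was the helicase subunit gene Mcm6, higher by 0.34 (SE 0.12, limma adjusted p = 0.794). Between the EV types they were Mcm6 (0.30, SE 0.12, limma adjusted p = 0.805) and Birc5 (0.31, SE 0.10, limma adjusted p = 0.757). Mcm6 stood at 4.07, 4.02 and 4.32 in platelets and 4.19, 4.32 and 4.61 in progenitors, highest on the CTC41.5G-EVs array of each.

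Within a cell type each comparison is 1 array against 1 array and carries no test. In platelets, members differed from PBS by -0.24 to 0.33 with CTC41-EVs and by -0.23 to 0.32 with CTC41.5G-EVs. With CTC41-EVs, 12 of 20 replication and 15 of 20 mitosis members were higher, where 52.9% of all genes were, with medians of 0.061 and 0.053. With CTC41.5G-EVs the counts were 7 and 14, where 52.7% of all genes were higher, with medians of -0.040 and 0.054. The count of mitosis members for CTC41-EVs changed with scaling, to 9 higher and 11 lower after quantile normalization (median -0.0095, where 48.1% of all genes were higher) and to 11 and 9 after scaling to equal medians (43.2%). For replication those settings gave 11 and 10 members higher. The largest values were Cdc6, an origin licensing factor, with CTC41-EVs (0.33) and Ccne2 with CTC41.5G-EVs (0.32). Between the EV types the range was -0.36, for Rrm1, to 0.42, for Birc5. Each value rests on a single pair of arrays.

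In progenitors most members were higher on the CTC41.5G-EVs array than on the PBS array: 18 of 20 for replication and 19 of 20 for mitosis, where 69.7% of all genes were. Their medians were 0.24 and 0.16, beside 0.09 over all genes. After scaling to equal array medians they were 0.17 and 0.087, with 16 and 17 members higher, where 55.4% of all genes were. Rrm1, the large subunit of ribonucleotide reductase, stood at 3.51, 3.70 and 3.96, Mcm6 at the values above, and Cdk1 at 4.41, 4.59 and 4.80. Each rests on single arrays, lay under 1.5-fold and stood under the progenitor 95th percentile of olfactory receptor genes (5.72). Rrm1 was also under the floor. With CTC41-EVs the counts against PBS were 14 and 15 of 20, where 52.8% of all genes were higher, with medians of 0.10 and 0.018. Both comparisons share the PBS array. On the same arrays the list mean of granulocyte precursor markers was 5.84 with PBS, 6.10 with CTC41-EVs and 6.04 with CTC41.5G-EVs, and that of megakaryocyte progenitor markers 5.51, 5.59 and 5.71. Their part in these differences was not tested.

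Mki67 was the only member past 1.5-fold in any of the 6 comparisons within a cell type. In progenitors it was higher than with PBS by 0.53 with CTC41-EVs and by 0.64 with CTC41.5G-EVs, while in platelets it differed by -0.12 and -0.23. Counted in either direction without a floor, 4.05% of all genes passed 1.5-fold in that comparison of CTC41.5G-EVs with PBS in progenitors, 1.98% for CTC41-EVs against PBS and 1.97% between the EV types. In platelets those shares were 3.5%, 3.74% and 4.63%. At the floor used for counts within a cell type, a mean of at least 5.07 over its 3 arrays, 11 members remained in progenitors and 4 in platelets. Of these 0 passed 1.5-fold in any comparison. Of all genes above that floor, 2.79%, 1.95% and 3.67% did so in platelets for CTC41-EVs against PBS, CTC41.5G-EVs against PBS and CTC41.5G-EVs against CTC41-EVs, and 3.2%, 6.22% and 1.39% in progenitors.

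**Figure D4:**
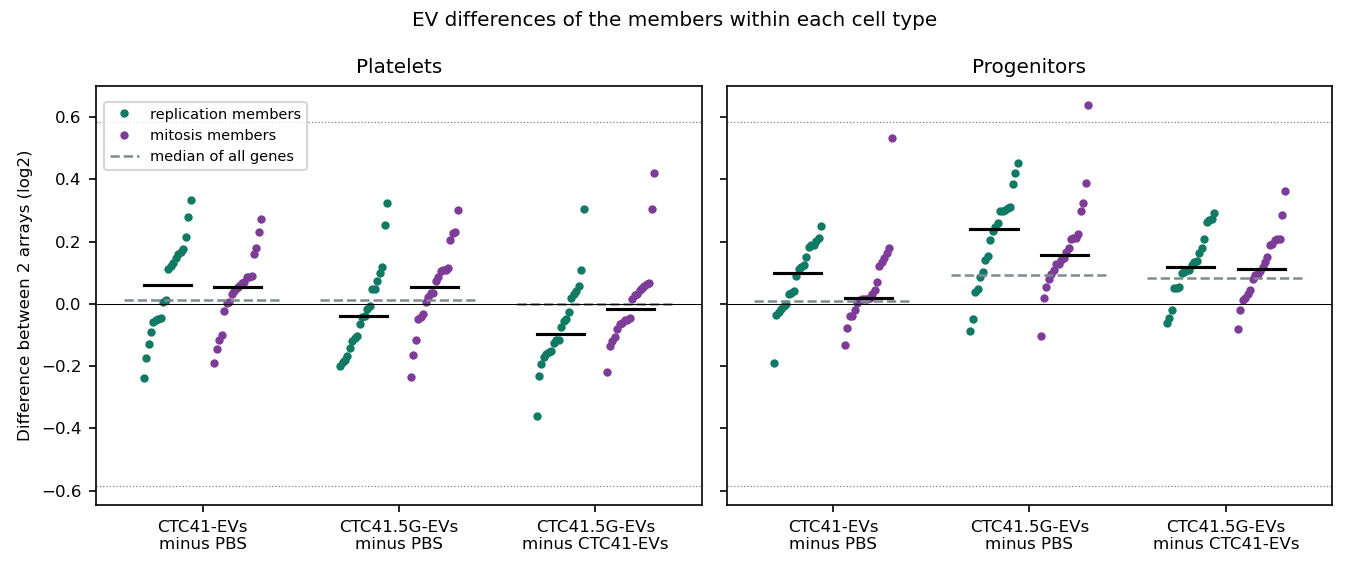
Log2 difference between 2 arrays (vertical axis) of the 20 replication and 20 mitosis members for each EV comparison in platelets (left) and progenitors (right); each point is 1 gene, black bars are medians of the members, grey dashes the median of all genes and dotted lines 1.5-fold. In progenitors the medians of the members lie above the median of all genes for CTC41.5G-EVs against PBS (0.24 and 0.16 against 0.09), while some members lie below it. Mki67 at 0.64 is the point past the dotted line.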

How the data were processed

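Each of the 6 Clariom D Mouse arrays held RNA of 1 pool of mice, 1 array for each cell type and treatment. The deposited values are log2 signals, which the authors summarised with Affymetrix Expression Console 1.4.1.46, per the submitters' processing notes, while the series description names MAS5.0, so the scaling between arrays is unclear. Precision is limited by the number of arrays. Of 72688 probes, 30604 named 1 gene symbol, 2146 several and 39938 none; those with 1 symbol were kept, with symbols updated through Entrez identifiers (RefSeq, GRCm38.p6) and, for several probes, that with the highest mean over the 6 arrays. limma 3.58.1 in R 4.3.3 fitted cell type and treatment as additive terms, with an intensity trend, over the 18875 genes at or above the 50th percentile of all probes (4.23), with Benjamini-Hochberg adjustment. The fit was tested on simulated data. Within a cell type, 1.5-fold differences were counted above the 75th percentile (5.07). Named in full are called members, up to 6 in each direction and set, members past 1.5-fold with an EV, and the 2 largest calls in each direction of each further list; Ccne2, Ccna2, Pcna, Mcm6, Rrm1, Ccnd2 and Ccnd3 were named after their values were seen. Members and lists were chosen with earlier results of these data known.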

Additional observations from a re-analysis of the deposited data

Results flagged for a closer look

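For Mki67, CTC41.5G-EVs against PBS differed by 0.64 in progenitors and by -0.23 in platelets, opposite in sign in the cell types. Each value is 1 array against 1 array, and the difference between the cell types was not tested.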

How the results depend on the processing

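The fit pairs the cell types by treatment, and leaving out the treatment term changed no call of a member. Lower replication calls (5) were 0 after quantile normalization, 0 after scaling to equal array medians and 0 after centring on olfactory receptor genes. They were 3 with the floor at the 75th percentile. Lower mitosis calls (4) were 0, 0, 0 and 1 in the same order. Of all genes tested in those settings, 12.1%, 10.1%, 5.47% and 24.4% were called lower. At the 75th percentile floor only 5 replication and 3 mitosis members were tested. There Mcm2, Mcm5, Pold1 and Plk1 stayed called, and Ccne1, Cdk2, Cdk1, Aurkb and Cdc20 were not tested. Higher replication calls (0) were 1, 1 and 2 under the 3 scalings (Ccna2, with Pcna in the last) and 1 without a floor (Ccne2). Higher mitosis calls (1) were 3 after centring on olfactory receptor genes (Mki67, Cenpf and Tpx2). Of all genes, 21.9%, 24.8% and 40.3% were called higher under the 3 scalings and 11.4% without a floor. The deposited progenitor mean of Cenpf (4.21) was under the floor, so it was tested only through the platelet arrays, where it is higher. Over all measured members, without a floor, the median difference changed sign under the 3 scalings. It went from -0.34 to 0.013, 0.037 and 0.38 for replication and from -0.24 to 0.11, 0.14 and 0.48 for mitosis. The 9 lower genes kept their sign under the first 2 scalings. Centred on olfactory receptor genes, Mcm2 stood at 0.12, Mcm5 at 0.092, Pold1 at 0.075, Ccne1 at 0.027, Cdk2 at 0.014, Cdk1 at 0.11 and Aurkb at 0.067. Leaving out 1 array gave 2 to 6 lower replication calls and 3 to 5 lower mitosis calls, where 23.0% to 27.4% of all tested genes were called lower. Lower replication calls were 2 without either CTC41.5G-EVs array, where Mcm2, Mcm5 and Pold1 (-0.56, -0.56 and -0.55) lay under 1.5-fold. Lower mitosis calls were 4 there. Cdk1 (-0.54) lay under 1.5-fold without either CTC41-EVs array. In progenitors, 1 member, Mki67, passed 1.5-fold with CTC41.5G-EVs without a floor and with the floor at the 50th percentile. In the same comparison with PBS, 1, Pcna (0.38), passed the lower fold threshold tried above the within-cell-type floor of 5.07. The share of all genes past that lower threshold was not counted, so the Pcna result cannot be set against an array-wide rate. At 1.5-fold above that floor, 6.22% of all genes passed there and 0 members did. Without the intensity trend or with probes averaged, the members called were the same genes, and Rb1, no member, then fell under the floor with its probes averaged. Most members lie near background, which limits any difference that these arrays can show.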
